A study of Mus musculus with 6 samples.

Results

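Microglia are the resident macrophages of the brain, and 37 genes that mark them or the other macrophages of the brain were read in the hippocampus of mice labelled PHF2 t/g and of wild-type (WT) mice. The genes were taken by symbol, and all 37 were among the 23282 rows of the count files. Of these, 31 passed the low-count filter that left 12831 genes for testing. The animals were C57BL/6 mice aged 16 weeks, and each genotype had 3 libraries made by 3′ end sequencing (QuantSeq). Such a library counts tags from the 3′ ends of transcripts. PHF2 is a demethylase of histone H3 lysine 9. A second label writes the PHF2 t/g libraries as Tg, and the sources used here do not give the construct, its promoter and expressing cells, the number of lines, the sex of the animals or any pooling. Nor do the labels say that each library came from an animal of its own, so a p-value here reflects the spread between libraries, which may be technical.

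Microglia arise from yolk sac macrophages and maintain themselves in the brain by division. Their survival depends on the CSF1 receptor, whose ligands CSF1 and IL-34 come from other brain cells. Neurons hold them in a resting, surveying state through ligands such as CX3CL1 and CD200. The transcription factor PU.1, encoded by Spi1, drives macrophage genes at large, and SALL1 with TGF-β signalling sets the microglial programme apart from that of other macrophages. In the hippocampus microglia are known for clearing dead cells and newborn neurons and, with complement C1q, for removing synapses. Perivascular and meningeal macrophages carry many of the same genes and are told apart by markers such as Mrc1 and Cd163.

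PU.1 binds purine-rich sites with a GGAA core, so the promoters of the genes were searched for that core and for 2 longer forms of it. RefSeq promoter windows (GRCm38.p6, 250 bases before to 50 bases after the start of the gene) were at hand for 27 of the 37 genes. The form GAGGAAGT, searched on both strands, was found in 4 of the 27 (14.8%), namely C1qc, Inpp5d, Ctss and Cd53. It was found in 3.69% of 27025 genes with such a window. The shorter AGGAAGT, which lies within GAGGAAGT, was in 10 of 27 (37%) against 10.7%. The core GGAA, which lies within both, was in 26 of 27 (96.3%) against 96.5%. These shares describe letters in the windows and not binding, and no test was made of them.

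The 4 promoters that hold the longest form are shown, with that of C1qb, the neighbour of C1qc in the C1q cluster, to let the letters around each match be read. Each runs 5′ to 3′ on the strand of its gene, with GAGGAAGT or AGGAAGT, or its reverse complement, in capitals. All but 2 stop at the last base before the start that the promoter table uses, which for C1qc lies slightly inside the gene's outer end as given with the C1q results. Those of Ctss and Cd53 run on to the end of the motif, whose first base lies 2 bases before the start in Ctss and at base 7 after it in Cd53.
C1qb, chr4:136886201-136886450, minus strand: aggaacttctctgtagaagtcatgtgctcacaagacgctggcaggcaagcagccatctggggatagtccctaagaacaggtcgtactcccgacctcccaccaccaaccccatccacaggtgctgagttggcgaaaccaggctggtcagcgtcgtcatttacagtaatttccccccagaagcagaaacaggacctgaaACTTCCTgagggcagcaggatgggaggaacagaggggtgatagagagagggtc
C1qc, chr4:136892915-136893164, minus strand: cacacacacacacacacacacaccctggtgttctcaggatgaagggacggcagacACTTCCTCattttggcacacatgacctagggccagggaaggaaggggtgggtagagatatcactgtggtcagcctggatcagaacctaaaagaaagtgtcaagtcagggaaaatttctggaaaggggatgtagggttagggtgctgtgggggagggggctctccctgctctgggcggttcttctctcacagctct
Ctss, chr3:95526536-95526791, plus strand: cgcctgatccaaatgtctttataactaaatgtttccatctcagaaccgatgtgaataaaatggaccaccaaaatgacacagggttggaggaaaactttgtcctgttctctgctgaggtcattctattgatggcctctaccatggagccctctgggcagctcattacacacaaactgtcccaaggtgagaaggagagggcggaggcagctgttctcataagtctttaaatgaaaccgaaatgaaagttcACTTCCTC
Inpp5d, chr1:87620062-87620311, plus strand: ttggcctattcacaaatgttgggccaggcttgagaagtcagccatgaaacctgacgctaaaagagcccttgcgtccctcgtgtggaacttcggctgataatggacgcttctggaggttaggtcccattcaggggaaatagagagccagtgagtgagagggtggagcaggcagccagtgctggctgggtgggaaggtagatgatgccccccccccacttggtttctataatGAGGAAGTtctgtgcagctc
Cd53, chr3:106790136-106790399, minus strand: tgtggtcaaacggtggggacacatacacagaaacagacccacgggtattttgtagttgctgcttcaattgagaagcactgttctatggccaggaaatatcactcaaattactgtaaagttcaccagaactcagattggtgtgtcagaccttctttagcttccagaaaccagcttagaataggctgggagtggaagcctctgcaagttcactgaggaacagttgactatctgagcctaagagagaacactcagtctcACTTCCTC

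The 6 libraries held 5512171 to 8844718 counts each, of which 3450 to 6019 fell on the 37 genes. Levels are given as CPM, counts per 1e+06 counts of a library total scaled by TMM. Phf2 itself had 35.5 to 43.1 CPM in PHF2 t/g against 35.6 to 39.3 in WT, so the labels could not be checked by it. Tissue markers were present in all 6 libraries, with 669 to 990 CPM of Snap25 (neurons) and 76.4 to 155 of Neurod6 (pyramidal neurons of the forebrain). The 10 surface and secreted genes of resting microglia were each read in every library. Among markers of infiltrating cells, Ccr2 of monocytes and Cd3d of T cells had 0 counts. Others on those lists were read in every library, with 4 to 43 counts of S100a8, 4 to 9 of Ly6c2 and 12 to 23 of Cd4. Prox1, which marks dentate granule cells, was low at 1.77 to 8.76 CPM. In multidimensional scaling WT replicate 2 lay far from the rest (first axis 1.08, the other libraries −0.533 to 0.152). Ttr, a choroid plexus transcript, was at 292 CPM in PHF2 t/g replicate 1 and at 1.29 to 4.46 elsewhere. Summed markers of leptomeningeal fibroblasts were 389 to 464 CPM (PHF2 t/g) and 237 to 331 (WT). For endothelial and mural cells they were 191 to 203 and 151 to 181 CPM, and for neurons 7698 to 7981 and 8584 to 8714. Within each list single markers went both ways. Fitted higher in PHF2 t/g were 7 of 8 tested fibroblast markers, 8 of 12 vessel markers and 3 of 10 neuron markers. Among neuron markers Camk2a had a mean of 2669 CPM in PHF2 t/g and 3214 in WT, and Syt1 1800 and 1801. The part of these library and marker differences in the results below was not tested.

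None of the 31 tested microglia and macrophage genes passed the test of PHF2 t/g against WT at an edgeR adjusted p under 0.05, and the fitted differences went in both directions. The smallest adjusted p was 0.0647, for Cx3cr1. Over all genes 291 were called (2.27%), 100 higher and 191 lower, or 207 and 70 with library size alone in place of TMM and 50 and 220 by DESeq2. Without PHF2 t/g replicate 1, 2 or 3 the calls over all genes were 49, 106 and 116. At an unadjusted p under 0.05 there were 3 of 31, Cx3cr1 and Aif1 lower and Tmem119 higher, where 14.7% of all genes reached that level. By DESeq2, 1 gene of the set was called, Cx3cr1 (adjusted p = 0.0453), but DESeq2 gave an adjusted p to only 8 of the 31. By limma-voom none was called. The 3 libraries of one group all lay outside those of the other for 6 of 31 genes (19.4%), against 20.6% of all genes, so this share was near the background. The median log2 fold change was −0.084 over the 31 genes and 0.02 over all 12831, with 19 of the 31 below 0. With library size alone both medians were higher by about the same amount, at 0.018 and 0.121, and 15 of the 31 lay below 0.

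**Figure D1:**
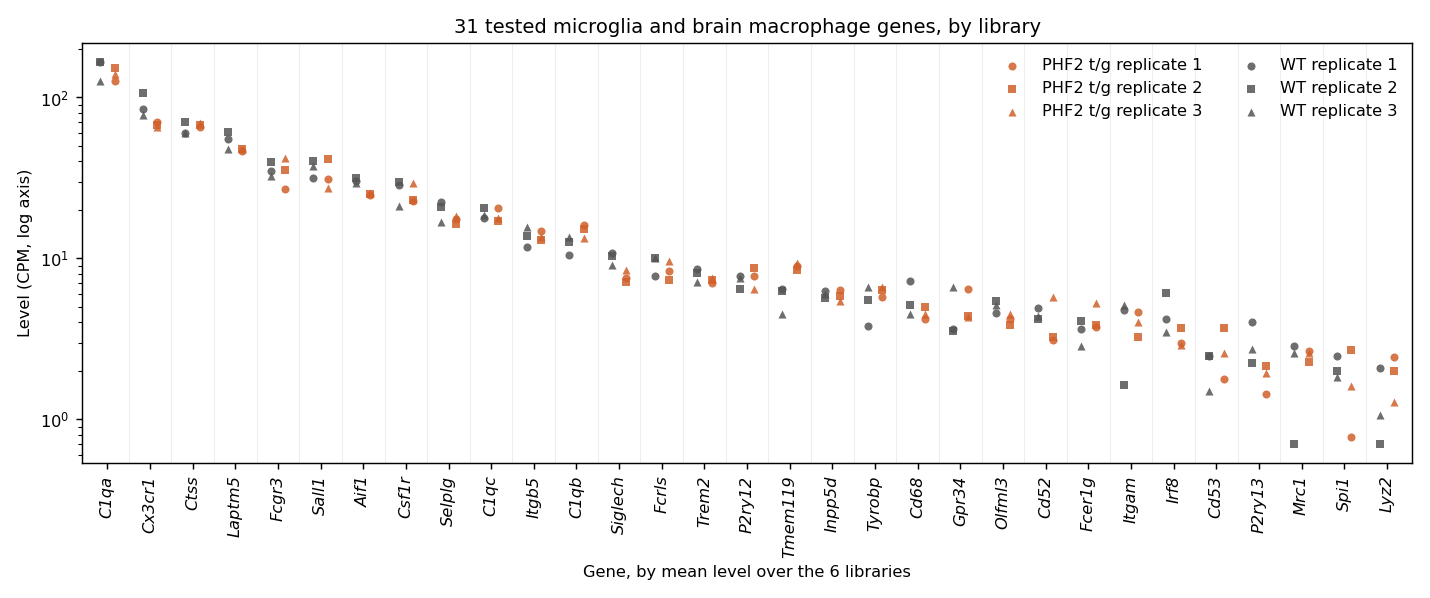
Level of each tested gene in each library in CPM on a log axis, for WT (grey) and PHF2 t/g (orange), with the marker shape giving the replicate number. Levels run from 126 to 165 CPM for C1qa down to 0.705 to 2.44 CPM for Lyz2, and for most genes the points of both groups mix.

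The summed level of the 37 genes was 580, 617 and 610 CPM in the PHF2 t/g libraries and 657, 707 and 593 in the WT libraries. The groups overlapped, with WT replicate 3 below 2 of the 3 PHF2 t/g libraries. As means this was 602 ± 19.7 CPM in PHF2 t/g and 652 ± 57.2 in WT (SD, n = 3). C1qa alone gave 23.2% ± 1.35 of the sum in PHF2 t/g and 23.2% ± 1.91 in WT. C1qa, Cx3cr1, Ctss and Laptm5 together gave 53.5% ± 0.737 and 55.1% ± 2.24. In such bulk tissue, fewer microglia and less RNA of a gene per microglial cell cannot be told apart. WT was the more variable group for 22 of the 31 genes (71.0%), as it was for 61.7% of all genes.

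Among the surface and secreted genes of resting microglia, 0 of 10 passed the test, with 3 fitted above 0 and 7 below. Their summed level was 149 to 158 CPM in PHF2 t/g against 161 to 202 in WT, without overlap, and Cx3cr1 was its largest term. That separation rested on Cx3cr1, and without it the summed levels of the 2 groups overlapped. Cx3cr1, the fractalkine receptor through which neurons signal to microglia (chromosome 9, 120048683 to 120068296, GRCm38), had 70.2, 67.6 and 65.2 CPM in PHF2 t/g. In WT it was at 84.5, 107 and 77.3 CPM. All 3 PHF2 t/g libraries lay below all 3 WT libraries, and WT replicate 2 was the highest. On the log2 scale the difference was −0.41 (SE 0.112, 95% interval −0.64 to −0.17; edgeR adjusted p = 0.0647), a level 1.33-fold lower. Of all 31 genes it had the smallest p, and over the alternatives run its adjusted p ranged from 0.00403 to 0.272. Without WT replicate 3 the adjusted p was 0.0338, and without the low-count filter, which raised the number of all calls to 606, it was 0.00403. The reverse held for Tmem119, a membrane protein used to tell microglia from infiltrating macrophages (chromosome 5, 113793729 to 113800396). Its level was 8.99, 8.52 and 9.33 CPM in PHF2 t/g against 6.47, 6.23 and 4.54 in WT. Every PHF2 t/g library lay above every WT library, on 199 counts against 117 over the groups. The log2 fold change was 0.64 (SE 0.208, 95% interval 0.20 to 1.08; edgeR adjusted p = 0.126, 0.0711 to 0.389 over the alternatives). Within each library the Tmem119 level per Cx3cr1 level was 0.126 to 0.143 in PHF2 t/g against 0.0582 to 0.0766 in WT. That ratio joins 2 genes picked from their values, so it is a description and was not tested.

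Siglech, a microglial receptor of the Siglec family (named for sialic acid binding), was at 7.55, 7.10 and 8.53 CPM in PHF2 t/g and 10.8, 10.3 and 9.08 in WT. P2ry13, an ADP receptor that acts in microglial process motility, was at 1.44, 2.13 and 1.93 CPM against 4, 2.23 and 2.72. Olfml3, a secreted matrix glycoprotein, was at 4.22, 3.83 and 4.51 CPM against 4.57, 5.40 and 5.14. In each of these the PHF2 t/g libraries lay below the WT libraries, for P2ry13 and Olfml3 by a narrow gap. Their log2 fold changes were −0.39, −0.68 and −0.28, and the 95% intervals of all 3 included 0 (edgeR adjusted p = 0.343, 0.393 and 0.655). P2ry13 rests on 40 counts in PHF2 t/g and 58 in WT. The other 5 genes had overlapping groups. P2ry12, the ADP receptor that steers processes toward injury, was at 6.44 to 8.66 CPM in PHF2 t/g against 6.46 to 7.80 in WT (log2 fold change 0.083, SE 0.205). Csf1r, the receptor for CSF1 and IL-34, was at 22.8 to 29.4 and 21.2 to 29.7 CPM (−0.084, SE 0.148). Fcrls (−0.16) and Selplg (−0.20), the latter the P-selectin ligand, were fitted slightly lower and the orphan receptor gene Gpr34 (0.16) slightly higher. P2ry12 and P2ry13 lie within Med12l, and Gpr34 lies within Cask. Exons of P2ry12 overlap those of Med12l and exons of Csf1r those of Hmgxb3, each on the opposite strand. The sources used here do not say whether the counting used strand, so the rows of P2ry12, Csf1r and, through introns, P2ry13 and Gpr34 are uncertain.

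**Figure D2:**
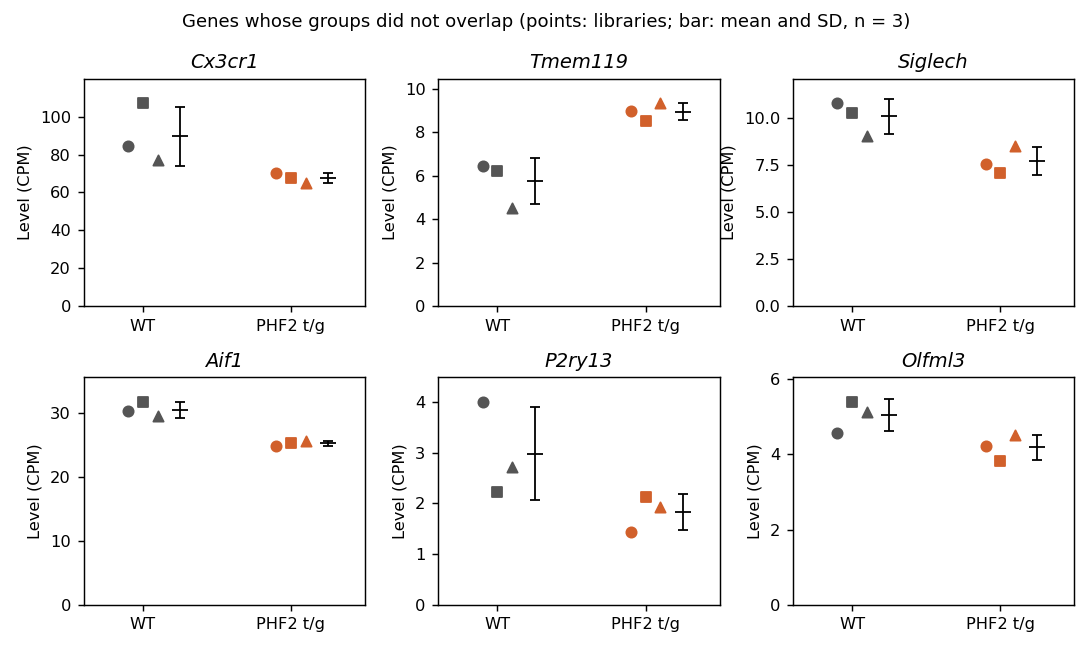
Level in CPM in each library (points, shape giving the replicate number) with the group mean and SD (bar, n = 3) for the 6 genes whose groups did not overlap, with axes from 0. Tmem119 alone is higher in PHF2 t/g (8.52 to 9.33 against 4.54 to 6.47 CPM), and Cx3cr1, Siglech, Aif1, P2ry13 and Olfml3 are lower.

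The 3 chains of complement C1q, which in the brain is made mainly by microglia and tags synapses for removal, did not pass the test. The genes lie side by side on chromosome 4, C1qb at 136880126 to 136886200, C1qc at 136889801 to 136892936 and C1qa at 136895916 to 136898844. C1qa was the best-read gene of the set, at 127, 152 and 140 CPM in PHF2 t/g and 165, 165 and 126 in WT. The groups overlapped through WT replicate 3 (log2 fold change −0.12, SE 0.105; edgeR adjusted p = 0.649). C1qb was at 16.1, 15.3 and 13.4 CPM in PHF2 t/g, with 10.5, 12.6 and 13.5 in WT, and again WT replicate 3 reached into the other group (0.29, SE 0.160; edgeR adjusted p = 0.416). C1qc was at 20.7, 17.0 and 17.7 against 17.7, 20.6 and 18.5 CPM (−0.035, SE 0.141), with the groups mixed throughout. Within a library the C1qb level per C1qa level was 0.126, 0.101 and 0.0954 in PHF2 t/g and 0.0634, 0.0764 and 0.107 in WT, so WT replicate 3 lay among the PHF2 t/g libraries. The chains assemble in equal numbers, yet their tags differed severalfold. The cause was not tested, and levels of different genes are not ranked here.

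The transcription factors that set macrophage and microglial identity did not pass the test. Spi1 (PU.1), required for all macrophages, was at 0.777, 2.70 and 1.61 CPM in PHF2 t/g and 2.47, 2 and 1.82 in WT. With 36 and 42 counts over the groups, its log2 fold change of −0.33 had an SE of 0.427. Irf8, a partner of PU.1 in microglial development and activation, was at 3, 3.69 and 2.90 CPM against 4.19, 6.11 and 3.48. One PHF2 t/g library exceeded the lowest WT library, and the fitted difference was −0.55 (SE 0.290; edgeR adjusted p = 0.394). Sall1, which in the adult brain marks microglia and represses their activation, was at 31.2, 41.2 and 27.4 CPM against 31.6, 40.3 and 37.4 (−0.14, SE 0.145). All 3 were fitted below 0 with overlapping groups, and Spi1 lay above 0 without PHF2 t/g replicate 1 (0.068).

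The receptors that signal through immunoreceptor tyrosine motifs, and their adaptors, mixed between the groups. Trem2, the lipid-sensing receptor that carries Alzheimer disease risk variants in people, was at 6.99 to 7.56 CPM in PHF2 t/g against 7.11 to 8.57 in WT (log2 fold change −0.12, SE 0.195). Its adaptor Tyrobp (DAP12) was at 5.77 to 6.60 against 3.81 to 6.66 CPM (0.21, SE 0.240). Fcer1g, the common Fc receptor γ chain, was at 3.77 to 5.31 against 2.87 to 4.11 CPM (0.26, SE 0.280). Fcgr3, a low-affinity IgG receptor, was at 26.9, 35.5 and 42 CPM in PHF2 t/g and 34.8, 39.6 and 32.4 in WT (−0.047, SE 0.148). The PHF2 t/g libraries here were spread more widely than the WT libraries. Inpp5d, the lipid phosphatase SHIP1 that restrains these receptors, was at 5.47 to 6.33 against 5.64 to 6.28 CPM (−0.016, SE 0.218). Of the 5 tested genes 2 lay above 0 and 3 below, all with an edgeR adjusted p of at least 0.725, and Cd33 was below the low-count filter.

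Genes of phagocytosis, adhesion and the lysosome also mixed between the groups. Ctss, the lysosomal protease cathepsin S, was at 65.7, 67.7 and 68.9 CPM in PHF2 t/g and 60.3, 70.7 and 60.4 in WT (log2 fold change 0.076, 95% interval −0.13 to 0.28). Laptm5, a lysosomal membrane protein of blood-derived and microglial cells, was at 46.7, 47.6 and 48.1 CPM against 55.4, 60.7 and 48.0. Here WT replicate 3 lay among the PHF2 t/g libraries (−0.21, SE 0.108; edgeR adjusted p = 0.384). Cd68, a lysosomal glycoprotein used as a sign of phagocytic activity, was at 4.22 to 4.97 CPM in PHF2 t/g against 4.54 to 7.23 in WT (−0.29, SE 0.253). Itgam, the CD11b chain of complement receptor 3, was at 3.27 to 4.66 CPM against 1.64 to 5.14. Its lowest value was that of WT replicate 2, and its log2 fold change of 0.12 was −0.30 without that library. Itgb5, an integrin chain found on microglia and other brain cells, was at 13.1 to 14.7 and 11.8 to 15.6 CPM (0.00033, SE 0.158).

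Aif1 (IBA1), the calcium-binding protein by which microglia are usually stained (chromosome 17, 35170986 to 35176083), had 24.8, 25.3 and 25.6 CPM in PHF2 t/g. In WT it was at 30.3, 31.7 and 29.4 CPM. The groups did not overlap and each was tight, at 25.2 ± 0.416 and 30.4 ± 1.20 CPM (SD, n = 3). The log2 fold change was −0.27 (SE 0.115, 95% interval −0.52 to −0.033; edgeR adjusted p = 0.261, 0.239 to 0.572 over the alternatives). Cd52, a small surface glycoprotein of leukocytes, was at 3.11 to 5.79 against 4.23 to 4.95 CPM (−0.18, SE 0.288). Cd53, a leukocyte tetraspanin, was at 1.78 to 3.69 against 1.51 to 2.47 CPM (0.29, SE 0.367). The genes that border macrophages and monocytes share were low in both groups. Mrc1, the mannose receptor of perivascular and meningeal macrophages, was at 2.27 to 2.66 CPM in PHF2 t/g and 2.86, 0.705 and 2.57 in WT. Lyz2, a lysozyme of macrophages and neutrophils, was at 2.44, 1.99 and 1.29 CPM against 2.09, 0.705 and 1.06. For both, WT replicate 2 was the lowest library. The log2 fold changes were 0.38 (SE 0.419) and 0.69 (SE 0.449), and without WT replicate 2 that of Mrc1 was −0.10.

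Of the 37 genes, 6 had too few counts for the test, with 0 to 14 counts in any library. Over the groups Cd33, a receptor of the Siglec family, had 16 counts in PHF2 t/g and 13 in WT. Mertk, a receptor for the engulfment of dying cells, had 17 and 15, Ly86, a partner of the Toll-like receptor homologue CD180, 22 and 21, and Csf3r, the G-CSF receptor, 19 and 22. Cd14, the lipopolysaccharide co-receptor, had 26 and 12 counts, a ratio of 1.98 (0.966 to 4.31, a 95% interval from the counts). Cd74, the invariant chain of MHC class II, had 10 and 4, a ratio of 2.29 (0.660 to 9.99). These intervals cover counting error only. In a fit without the low-count filter none passed, with edgeR adjusted p from 0.555 to 0.987. Differences within these counting intervals were not detectable at this depth.

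**Figure D3:**
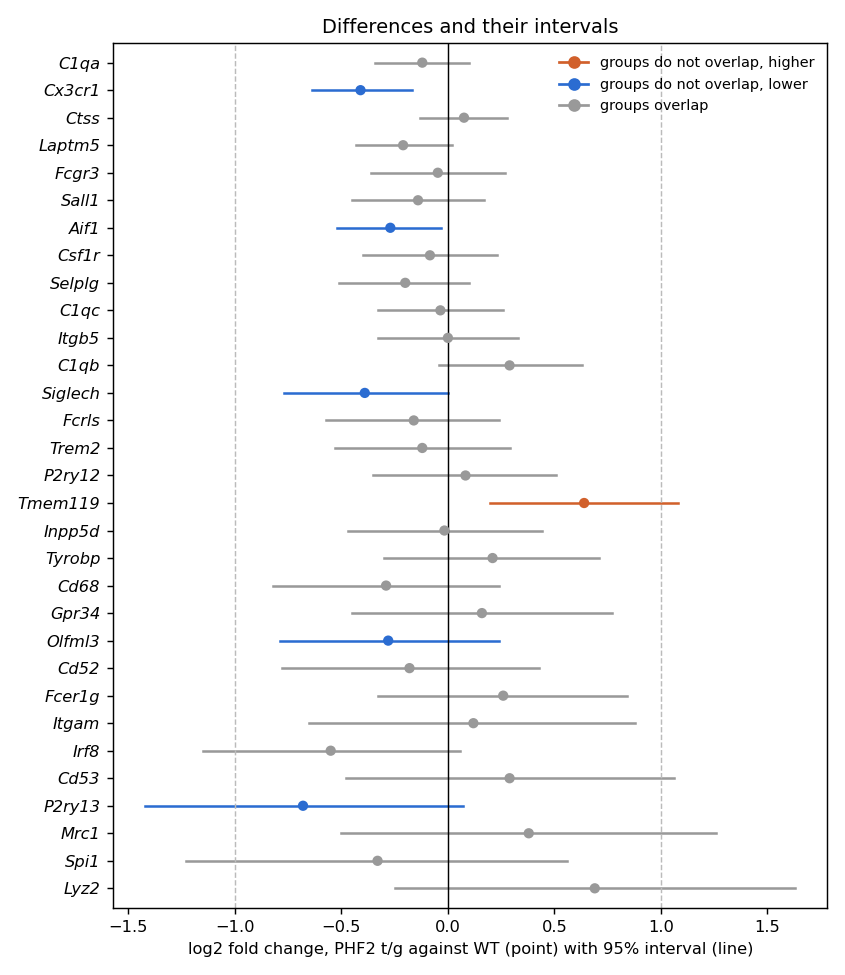
Fitted log2 fold change of each tested gene, PHF2 t/g against WT (point), with its 95% interval (line), ordered by mean level, with dashed lines at 2-fold. Orange and blue mark genes whose groups do not overlap (higher and lower in PHF2 t/g), grey the others. The intervals of Cx3cr1, Aif1 and Tmem119 leave out 0, and intervals widen toward the low-count genes at the bottom.

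How large a difference could have been missed depended on the counts. For 24 of the 31 genes the 95% interval lay within 2-fold in either direction, and for 14 it lay within 1.5-fold. The remaining 7 intervals reached 2-fold on one side. All 12 genes with a mean of at least 10 CPM were among the 24, and their intervals reached at most 0.33 to either side of the log2 fold change. Over all 31 this reach ran from 0.21 for the most precise gene to 0.94 for the least. These intervals are for single genes and are not adjusted for the number of genes.

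**Figure D4:**
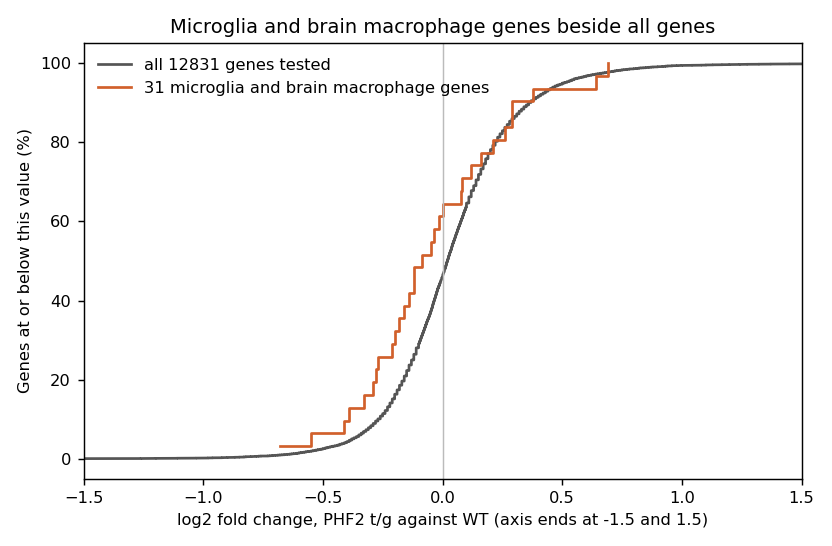
Percentage of genes at or below each log2 fold change, for the 31 tested microglia and macrophage genes (orange) and all 12831 tested genes (grey). The orange line crosses 50% at −0.084 and the grey line at 0.02, and both cover values above and below 0.

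The signals that reach microglia were read from a list of 17 ligands and receptors, of which 13 were tested and none passed (median log2 fold change 0.0082). Il34, the neuronal ligand of the CSF1 receptor, was at 74.2, 75.8 and 96.4 CPM in PHF2 t/g and 112, 102 and 94 in WT (−0.33, SE 0.107; edgeR adjusted p = 0.132, and 0.0327 without the low-count filter). PHF2 t/g replicate 3 overlapped the WT libraries. Nrros, which presents latent TGF-β1 on microglia, was at 11, 10.5 and 10.1 CPM against 8.95, 7.64 and 6.96 (0.44, SE 0.183; edgeR adjusted p = 0.257). All PHF2 t/g libraries were above all WT libraries for Nrros. The ligand of the Cx3cr1 receptor, Cx3cl1, was at 604 ± 16.6 CPM in PHF2 t/g and 617 ± 42.1 in WT (SD, n = 3; −0.033, SE 0.0769). Tgfb1 had 0 counts in all 6 libraries, so its level was not measured here.

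A further 38 microglia-enriched genes gave 29 tested genes, 0 of which passed, with 14 above 0 and 15 below (median −0.011). By the smallest p the list was led by Mef2c (−0.23, SE 0.0810) and Sparc (0.22, SE 0.0843), which neurons and blood vessels also express. Their edgeR adjusted p was 0.164 and 0.196, and without WT replicate 2 Sparc was called higher (0.32, adjusted p = 0.016).

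In the list of genes that rise in disease-associated microglia, 3 of 16 tested members were called, 1 higher and 2 lower. Over all genes 2.27% were called. Cd63, a tetraspanin of lysosomes and secreted vesicles in many cell types, fell from 454, 504 and 436 CPM in WT to 317, 348 and 290 in PHF2 t/g. The PHF2 t/g libraries lay below all WT libraries, by −0.55 on the log2 scale (SE 0.0852; edgeR adjusted p = 0.00161). Ctsz, the lysosomal protease cathepsin Z, fell from 184, 189 and 174 CPM to 133, 138 and 119, again without overlap (−0.49, SE 0.0830; edgeR adjusted p = 0.00324). Both calls held without each library in turn, with adjusted p of at most 0.0379 for Cd63 and 0.0439 for Ctsz over the alternatives, though neither difference reached 1.5-fold. Spp1, osteopontin, rose from 0.952, 1.29 and 2.12 CPM to 4.44, 3.27 and 4.83 (1.49, SE 0.350; edgeR adjusted p = 0.0302). This call rests on 5 to 14 counts per WT library and 23 to 40 per PHF2 t/g library. It ended without any 1 library but WT replicate 3, by limma-voom and without the robust fit (adjusted p up to 0.21), and DESeq2 gave no adjusted p. Spp1 is also made by cells of the meninges, whose summed markers were higher in the PHF2 t/g libraries as given above. Of 8 tested meningeal markers 7 lay above 0, and Dcn lay below (−0.34). The part of these cells in the Spp1 difference was not tested. Apoe, the lipid carrier of astrocytes and activated microglia, was at 479 to 571 and 486 to 504 CPM (0.079, SE 0.0799). Of the 20 listed genes 4 were below the low-count filter. Itgax had 1 count in a single library, Clec7a 0 to 2 per library, Cst7 1 to 6 and Lgals3 0 to 5.

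Complement genes other than C1q did not pass in 10 tested members, of which 9 lay above 0 (median 0.23). Over all 12831 tested genes 6916 lay above 0. Cfb, counted among the 9, was at 0.00045 with an SE of 1.28 and so had no clear direction. Csmd1, a neuronal complement inhibitor, was at 21.7, 23.9 and 26.2 CPM in PHF2 t/g and 19.6, 13.9 and 17.7 in WT (0.50, SE 0.151; edgeR adjusted p = 0.0952). It was called with library size alone (adjusted p = 0.044) and without the low-count filter (0.0346). Clu, a secreted chaperone of astrocytes, was at 194 to 224 and 176 to 187 CPM (0.18, SE 0.0817). C3, the target of the C1q cascade, had 0 to 4 counts per library and was not tested, and C3ar1, its receptor on microglia, was at 2.15 ± 0.144 and 2.18 ± 0.806 CPM. Of 20 inflammatory cytokine, chemokine and sensor genes, 15 were below the low-count filter. Tnf had 0 counts in every library, Il1a 3 counts in a single library and Il1b 0 to 5 per library. A total of 0 counts in a library allows up to 3 counts there, for counting error only. For a row at 0 in all libraries, such as Tnf, the annotation used for counting may also matter, and it is not given. Il18 and Tgm2 had the smallest p of the 5 tested (−0.31, SE 0.103, and 0.44, SE 0.206), and neither passed (edgeR adjusted p = 0.131 and 0.334).

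Markers of other immune cells set what the counts of shared genes could hold. Of 16 border macrophage markers 5 were tested and none passed, with 3 fitted above 0 and 2 below (Clec10a −0.33 and Stab1 −0.034). Cd163, a haemoglobin scavenger receptor, was at 2.78 to 3.54 CPM in PHF2 t/g against 1.21 to 2.35 in WT (0.69, SE 0.343; edgeR adjusted p = 0.365), and Dab2 at 3.27 to 4.34 against 2.27 to 3.17 (0.44, SE 0.297). The list summed to 38.1 to 42.3 CPM in PHF2 t/g against 33.6 to 37.2 in WT, with no overlap. Maf, which neurons also express, gave 18.8 to 21.9 and 17.9 to 19 CPM of that. The 6 MHC class II genes summed to 9.33 to 10.9 and 9.14 to 10.3 CPM, and neither tested member passed, H2-DMa with 0.25 and H2-DMb1 with −0.12. Of 13 lymphocyte markers 12 had a row. Cd3d, Ms4a1, Nkg7 and Gzma had 0 counts in all libraries, and Cd4 was the 1 tested, at 1.93 to 2.56 against 2.27 to 2.70 CPM (−0.075, SE 0.324).

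The 12 monocyte and neutrophil markers summed to 9.51 to 12.8 CPM in PHF2 t/g against 4.24 to 6.58 in WT, and the groups did not overlap. The defining monocyte gene Ccr2 had 0 counts throughout, as did the neutrophil granule gene Ltf. Also below the low-count filter, Ngp had 12, 5 and 7 counts in PHF2 t/g against 1, 0 and 1 in WT. S100a9 had 24, 6 and 7 against 4, 3 and 4, while Chil3 had its only count in WT replicate 2. S100a8, an alarmin of neutrophils, was at 4.77, 3.27 and 2.74 CPM in PHF2 t/g and 0.761, 2.58 and 0.908 in WT (1.25, SE 0.411; edgeR adjusted p = 0.131), and Mmp9 had −0.63 (SE 0.395). Neither passed. WT replicate 2 held 22 of the S100a8 counts against 4 and 6 in the other WT libraries, and without it S100a8 was called higher (2.1, adjusted p = 0.00839), as it was without the low-count filter (adjusted p = 0.028). Lcn2, lipocalin-2, was chosen after its values were seen. It had 16, 10 and 10 counts in the PHF2 t/g libraries and 1, 0 and 0 in WT, too few for the low-count filter. The ratio was 32.9 (5.55 to 1337, a 95% interval from the counts that covers counting error only). The adjusted p in the edgeR fit without that filter was 0.000105, in a fit that raised all calls from 291 to 606. Since the gene was picked for its values, this p is a description and not a test. Neutrophils, astrocytes, vessels and meninges can all make it, and the part of each was not tested.

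Other cells of the tissue gave the frame in which the microglial genes were read. None of 12 astrocyte markers passed (Gjb6 0.24 and Aqp4 −0.32 with the smallest p). Gjb6 was called without WT replicate 2 (adjusted p = 0.0467) and with library size alone (0.0393), and Aqp4 without the low-count filter (0.0371). Of 10 oligodendrocyte markers Opalin (−1.46) and Mag (−0.36) fell, and none of 5 tested precursor markers passed (Olig2 −0.47, Pdgfra 0.38). Of 10 neuron markers Gad2 (0.53) rose and Tubb3 (−0.38) fell. In vessels Flt1 (0.48) and Ly6c1 (0.67) rose among 12 markers, of which 8 lay above 0 and 4 below. Cldn5 of that list was lower without overlap and did not pass (−0.59, edgeR adjusted p = 0.0791). Among 8 tested meningeal markers Mgp (1.37) rose. Neither 3 tested choroid plexus markers (Clic6 1.79, Prlr 1.53) nor 3 haemoglobin genes (Hbb-bt 0.94, Hbb-bs 0.78) passed. Clic6 (adjusted p = 0.0614) was called without PHF2 t/g replicate 2 (0.00597), without the low-count filter (9.88e-10), without the robust fit (0.0369) and with WT replicate 2 and PHF2 t/g replicate 1 both left out (0.0434). Prlr was at 7.55 CPM in PHF2 t/g replicate 1 and 1.99 and 2.09 in the others, and without that library its log2 fold change was 0.53. With no low-count filter Prlr was called (adjusted p = 0.00314). The calls of Mag, Flt1, Ly6c1, Gad2 and Tubb3 ended without PHF2 t/g replicate 1. That of Mag also ended without any other library but WT replicate 3, that of Ly6c1 without any other but WT replicate 2, that of Flt1 when either of the remaining PHF2 t/g libraries or WT replicate 3 was left out, and that of Tubb3 without PHF2 t/g replicate 3. Other settings also ended calls. That of Mag ended with library size alone (adjusted p = 0.131), by limma-voom (0.104) and without the robust fit (0.088), and that of Tubb3 with library size alone (0.0647). The call of Ly6c1 ended by limma-voom (0.0568) and without the robust fit (0.0505), and that of Flt1 without the robust fit (0.0507). The largest adjusted p of these genes over the alternatives was 0.0753 (Gad2) to 0.324 (Mag). The values are log2 fold changes from the same edgeR fit, in which 2.27% of all genes were called.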

How the data were processed

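The 6 files hold raw counts per gene symbol, 1 per library, as deposited; Bowtie2, edgeR and mm10 are named in the submitters' processing notes. The sources used here do not give versions, the counting program, annotation, strand setting or filters. Groups and replicate numbers came from the sample titles. The members and lists were chosen with earlier results of these data known.

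Genes were kept by filterByExpr, scaled by TMM and tested with edgeR 4.0.16 in R 4.3.3 (quasi-likelihood F-test, robust fit, a genotype term alone). P-values were adjusted over 12831 genes by Benjamini-Hochberg, and 0.05 was the threshold. CPM are counts per 1e+06 of the TMM-scaled library total; the SE is the log2 fold change over the square root of F. Alternatives used limma 3.58.1, DESeq2 1.42.0 and others named in the closing section. The procedure was run on simulated counts as a check of the code, and no result given here rests on that run. All 37 genes are reported; in the other lists up to 4 members past the threshold were named, otherwise the 2 with the smallest p. Named after their values were seen were Cx3cl1, Apoe, C3ar1, Lcn2, Cldn5, Dcn, Camk2a, Syt1, Clec10a, Stab1, and genes given for low or absent counts. Of the listed symbols, Vsir was matched through a RefSeq synonym and Trbc2 had no row. Positions are from RefSeq GRCm38.p6, the assembly mm10 corresponds to, and exon overlaps from GENCODE M21. Even the closest pair of libraries differed beyond sampling noise (chi-square 2.95 per gene). Depth was 5512171 to 8844718 counts per library.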

Additional observations from a re-analysis of the deposited data

How the results depend on the processing

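The count of 0 microglia and macrophage genes held with DESeq2's size factors, library size alone, limma-voom, a filter at 1 CPM in 3 libraries, a non-robust fit and 5 of the 6 fits without 1 library. It was 1 with an adjusted p under 0.10, DESeq2, no low-count filter, the replicate block and without WT replicate 3 (range without each library 0 to 1), in each case Cx3cr1, and 1 (Tmem119) with an unadjusted p under 0.05 and 1.5-fold. The median moved to 0.018 with library size alone. Over all genes the 291 calls became 547 with an adjusted p under 0.10, 162 by limma-voom, 606 without the filter, 149 without the robust fit and 49 to 392 without 1 library (49, 106 and 116 without PHF2 t/g replicate 1, 2 and 3). With WT replicate 2 and PHF2 t/g replicate 1 both left out, chosen after seeing the data, 140 genes and 0 of the set were called.

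Under the alternatives 463 values of tested microglia and macrophage genes kept their direction and side of the threshold, 6 passed it and 35 turned in sign; the cause was not tested. DESeq2 gave no adjusted p for 23 of the 31 genes, which are not among these. With library size alone Inpp5d was 0.086, Fcgr3 0.054, Csf1r 0.018 and C1qc 0.067. The lymphocyte marker Cd4, which is not of the set, was 0.027. Itgb5 was −0.0072 with DESeq2's size factors, −0.0033 without the filter and −0.0017 with the CPM filter. Without both libraries named above Fcgr3 was 0.20, Itgb5 −0.057, Csf1r 0.089, Mrc1 −0.16, Spi1 0.04, P2ry12 −0.016, C1qa 0.0093, Itgam −0.45 and Gpr34 −0.26. Without 1 library the ranges were Inpp5d −0.079 to 0.028, Fcgr3 −0.2 to 0.12, Itgb5 −0.096 to 0.089, Csf1r −0.23 to 0.02, Mrc1 −0.1 to 0.68 and Spi1 −0.86 to 0.068. They were P2ry12 −0.015 to 0.18, Cd53 −0.016 to 0.54, C1qc −0.13 to 0.037, Itgam −0.3 to 0.42 and Gpr34 −0.07 to 0.52. For Cd4, outside the set, the range was −0.15 to 0.033.

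Whether the replicate numbers pair the libraries cannot be settled here. Same-numbered libraries deviated from their group means with correlations of −0.002, 0.122 and 0.09 across genes for numbers 1, 2 and 3. For numbers 2 and 3 both libraries correlated best with their own number, and for number 1 neither did. With the replicate block 299 genes were called, Cx3cr1 had an adjusted p of 0.0481 and Mag one of 0.0517. Depth limits the 6 genes below the filter most.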
